A study of Mus musculus with 12 samples.

Results

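The genes described here are the 31 genes of sterol and fatty acid synthesis in MIN6 cells, a mouse insulinoma line used as a model of the pancreatic β cell, measured after induction of miR-184. A gene was taken as measured where the platform annotation gave its symbol to a probe and that probe was detected (detection p under 0.01) on at least 2 of the 12 arrays. Of the 31 genes, 28 had an annotated probe and 26 were measured, among 12001 genes and unnamed array features in all. The 26 were 14 of 18 genes of sterol synthesis, 8 of 9 genes of fatty acid synthesis and all 4 regulators of both pathways. The annotation used here gave no probe to Acat2, Hmgcs1 or Fdft1, so these were not analysed. Idi1 was detected on 1 array and Acaca on 0 arrays, and both stayed out of the tests.

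Total RNA was hybridised to Illumina MouseWG-6 v2 bead arrays, 2 arrays in each of 6 groups. Of the groups, 4 had been transfected with an rtTA plasmid and a tetO-184 plasmid and then exposed to doxycycline (1 µg/ml) over 16, 24, 48 or 72 hr. The transfected control carried the same plasmids with no doxycycline. The untransfected control received lipofectamine without plasmid, and doxycycline. The series' design text speaks of biological triplicates without saying how the cultures were separated, and 2 arrays a group were analysed here. The plasmids were introduced overnight with lipofectamine, and the share of cells that took them up is not given in the sources used here. When the controls were harvested is not stated in the labels, so time in culture and induction cannot be told apart at any time point. Against the transfected control, doxycycline and miR-184 differ together. Replicate 1 of each group was on slide 1 and replicate 2 on slide 2. No annotated probe read miR-184, so its own induction was not checked on these arrays.

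Cells build cholesterol from acetyl-CoA through mevalonate, a chain of isoprenoid diphosphates, squalene and lanosterol. Fatty acids start from the same acetyl-CoA, which Acly releases from citrate, and are built by Acaca and Fasn, lengthened by Elovl6 and desaturated by the Scd and Fads enzymes. Both pathways are under the SREBP transcription factors, with SREBP-2 (Srebf2) acting mainly on sterol genes and SREBP-1 (Srebf1) more on fatty acid genes. The SREBPs are held in the endoplasmic reticulum by Scap and Insig when sterols are plentiful, and Scap carries them to the Golgi for cleavage when sterols are low. On many sterol promoters SREBP binds beside NF-Y, which reads the letters CCAAT, and Sp1, which reads GGGCGG.

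The miRNA that was induced is shown first, because its seed is the part that pairs with targets. In RefSeq on GRCm38.p6 the mature strand mmu-miR-184-3p has 22 bases at chr9:89802263-89802284 on the minus strand, with the seed (bases 2 to 8) in capitals. 
mmu-miR-184-3p: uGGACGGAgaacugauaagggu
No target site was searched for in the 31 genes.

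Promoter windows from RefSeq (250 bases before to 50 after each annotated start, GRCm38.p6) were searched for 24 of the 31 genes. Fdps, Fdft1, Sqle, Scd1, Scd2 and Fads1 had none. Member windows on chromosome 18, where Stard4 lies, were left out, so Stard4 was not searched. The shares of all windows and of protein-coding genes below do include that chromosome. Searched on both strands, the letters CCAAT stood in the windows of 13 of 14 sterol genes (92.9%), missing in Acat2, and in 3 of 6 fatty acid genes (50%), namely Acly, Fasn and Me1. Among the regulators, 3 of 4 held it, and Scap did not. It occurs in 37.4% of all 32851 windows and in 42.3% of protein-coding genes. The GC box GGGCGG stood in 13 of 14 sterol genes, missing in Pmvk, in 3 of 6 fatty acid genes (Acly, Fads2 and Me1) and in 4 of 4 regulators, against 35.7% of all windows and 49.2% of protein-coding genes. The E-box CACGTG was in 3 of 14 sterol genes, 0 of 6 fatty acid genes and 2 of 4 regulators. It was in 7.15% of all windows and 8.91% of protein-coding genes. The sterol regulatory core TCACNCCAC, where N is any base, was in 1 member, Hmgcs1, against 1.24% of all windows and 1.41% of protein-coding genes. No base was shared between motifs. These matches describe letters in a window, and no binding was measured.

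**Figure D1:**
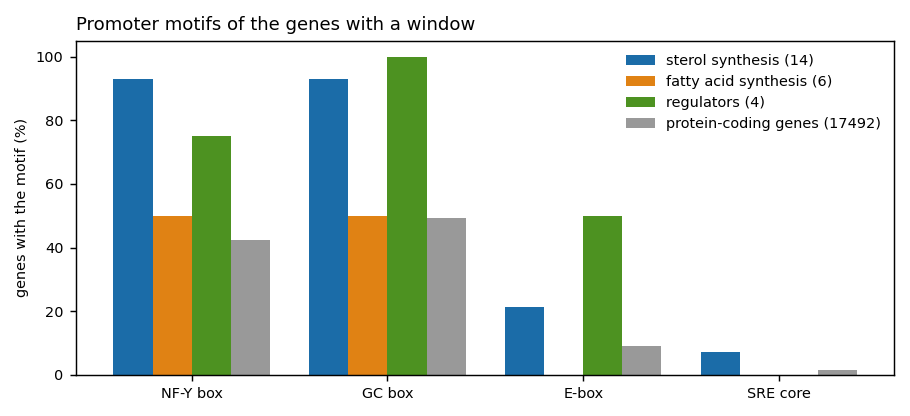
Share of genes (%, from 0) whose RefSeq promoter window held each of the 4 motifs on either strand, for the sterol genes (14 with a window searched), fatty acid genes (6), regulators (4) and protein-coding genes (17492). The bars for CCAAT and GGGCGG stand at 92.9% in sterol genes, against 50% in fatty acid genes and 42.3% and 49.2% in protein-coding genes.

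The 200 bases before the start are shown for the 3 mevalonate enzymes with the most negative change after 72 hr, for Srebf2 and for Elovl6, the 1 fatty acid gene that passed the test described below. CCAAT is in capitals, also where it lies on the other strand and reads ATTGG. The stretches run 5′ to 3′ on the strand of the gene: Mvk at chr5:114444069-114444268 (plus strand), Pmvk at chr3:89454341-89454540 (plus), Mvd at chr8:122443423-122443622 (minus), Srebf2 at chr15:82147069-82147268 (plus) and Elovl6 at chr3:129532186-129532385 (plus).
Mvk: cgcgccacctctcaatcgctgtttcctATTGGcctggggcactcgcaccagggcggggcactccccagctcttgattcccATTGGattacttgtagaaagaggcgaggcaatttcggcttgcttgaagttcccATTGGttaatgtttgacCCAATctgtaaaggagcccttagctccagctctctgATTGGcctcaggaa
Pmvk: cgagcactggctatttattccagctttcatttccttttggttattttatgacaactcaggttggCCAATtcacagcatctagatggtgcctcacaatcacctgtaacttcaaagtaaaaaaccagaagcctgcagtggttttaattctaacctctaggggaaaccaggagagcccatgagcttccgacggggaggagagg
Mvd: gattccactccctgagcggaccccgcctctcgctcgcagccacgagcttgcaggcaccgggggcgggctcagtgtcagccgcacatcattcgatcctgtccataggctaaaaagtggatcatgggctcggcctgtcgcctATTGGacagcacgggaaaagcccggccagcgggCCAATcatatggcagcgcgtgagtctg
Srebf2: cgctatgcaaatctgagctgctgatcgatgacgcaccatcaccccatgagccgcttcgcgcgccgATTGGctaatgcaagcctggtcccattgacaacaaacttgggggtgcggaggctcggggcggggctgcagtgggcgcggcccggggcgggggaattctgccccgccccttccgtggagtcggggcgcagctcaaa
Elovl6: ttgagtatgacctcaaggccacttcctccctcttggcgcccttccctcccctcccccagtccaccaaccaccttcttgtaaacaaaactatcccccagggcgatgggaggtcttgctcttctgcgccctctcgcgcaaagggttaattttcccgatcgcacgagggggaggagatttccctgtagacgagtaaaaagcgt
The Mvk stretch held 5 such boxes, 1 as CCAAT and 4 as ATTGG. Mvd held 2 boxes, Pmvk and Srebf2 held 1 each and Elovl6 held 0. A further annotated start of Pmvk, at chr3:89459371-89459570 for its 200 bases, held 0. The Srebf2 window also held 5 GC boxes.

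Between 15243 and 16737 of 45281 probes were detected on an array, and signals are given below as log2 intensity after background correction and quantile normalization. Slides differed for some members, so the test was run without and with the slide in the fit. As a check of the cell type, 11 of 12 β cell markers with a probe were detected on all 12 arrays, and Pcsk1 was detected on 0. Of the other islet markers, Gcg, Ppy and Irx2 were detected on every array and Sst and Hhex on 0. None of the 4 exocrine and 6 fibroblast, endothelial and immune markers with a probe was detected on any array.

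The first question was what the pathway genes did after 72 hr of induction, where the array as a whole moved most. The median of the sterol genes was below that of the fatty acid genes, and within the sterol genes the mevalonate steps had the more negative median. Relative to the transfected control, all 14 measured sterol genes had a negative log2 fold change at 72 hr, with a median of -0.62 and a range of -1.39 to -0.05. Of these, 2 passed the test (limma, Benjamini-Hochberg adjusted p under 0.05), Mvk and Pmvk, and 7 passed with the slide in the fit. No member of any class was called higher in either fit. The fatty acid genes had a median of -0.23, with 5 negative and 3 positive, and 0 passed without the slide and 1 with it. The 4 regulators had a median of -0.45, and 0 passed without the slide and 2 with it. The median of all features was 0.00.

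In all, 2 of 26 members were called lower at 72 hr, where 2.75% of all features were called lower and 2.73% higher. With the slide in the fit 10 of 26 members were called lower, where 8.76% of all features were called lower and 10.4% higher. Both 72 hr arrays were below both transfected control arrays in 16 of 26 members, which held for 26.3% of all features. These calls rest on single arrays. Without the second 72 hr array, or without either transfected control array, 0 members passed in the fit without the slide, and without the first 72 hr array 5 passed. With the slide in the fit, 0 members passed without the second 72 hr array or the second transfected control array, 5 without the first transfected control array and 14 without the first 72 hr array. Where 1 array was left out, the remaining array of its group was assumed to vary like the other groups. With only the 2 groups compared in the fit, 0 members passed without the slide and 3 with it, and with median scaling in place of quantile normalization 0 and 5 passed.

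The members were also read against the untransfected control, which had doxycycline and no plasmid. At 72 hr 1 member, Mvk, passed the test against that control without the slide, where 3.5% of all features were called lower and 3.61% higher, with a log2 fold change of -1.31 and an adjusted p of 0.0406 (limma). With the slide in the fit 6 were lower (Mvk, Mvd, Hsd17b7, Ebp, Elovl6 and Srebf2), where 9.58% of all features were lower and 10.8% higher. Pmvk was -0.71 against it, with an adjusted p of 0.123 (limma), and 0.0620 with the slide.

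**Figure D2:**
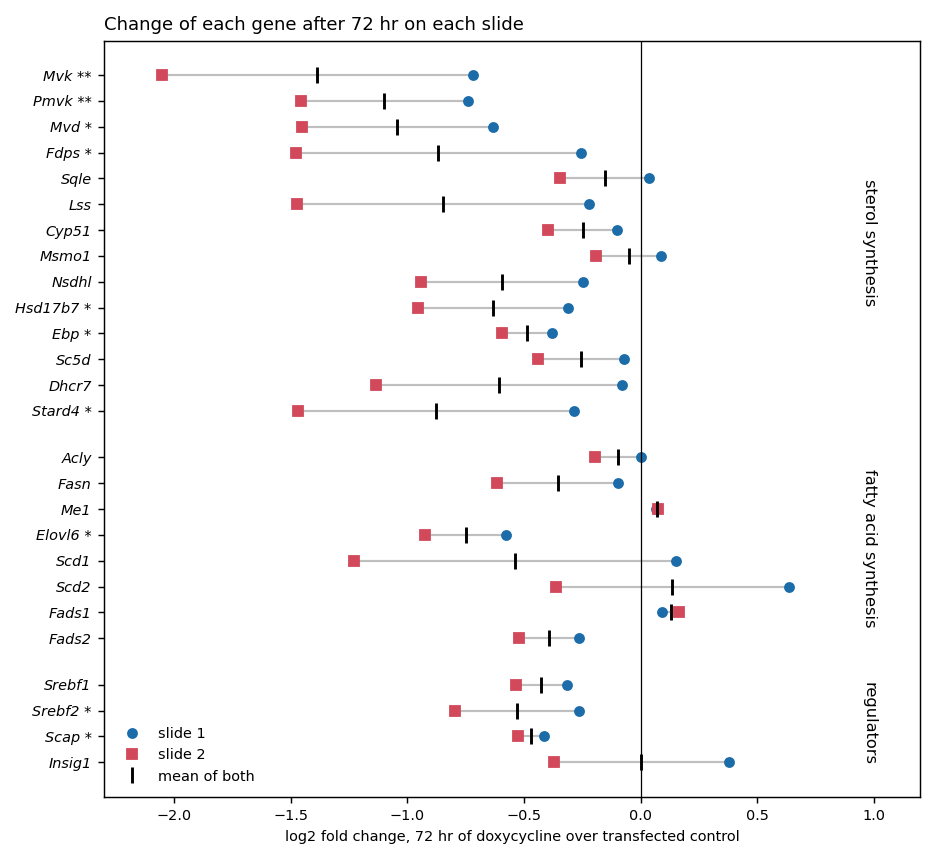
Log2 fold change of each of the 26 measured members after 72 hr of induction, relative to the transfected control, with 1 point per slide (blue circles slide 1, red squares slide 2) and a tick at their mean, and genes grouped by class. All 14 sterol genes have a mean below 0, from -1.39 (Mvk, with 1 of its 72 hr arrays not detected) to -0.05 (Msmo1), and 2 asterisks mark Mvk and Pmvk, which passed in both fits (1 asterisk, only with the slide).

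The mevalonate steps, from Mvk to Fdps, had the most negative median of the sterol genes. Of the 7 genes listed for the route to Fdps, Acat2, Hmgcs1 and Idi1 were not measured. All 4 measured genes were below the transfected control on both slides, with a median log2 fold change of -1.07. That median was -0.68 on slide 1 and -1.47 on slide 2. Without the slide Mvk and Pmvk passed, and with it all 4 did, where 2.75% and 8.76% of all features were called lower.

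Mvk, mevalonate kinase, phosphorylates mevalonate and lies at chr5:114444264-114460591 (GRCm38.p6). Its log2 signal was 6.08 and 4.97 at 72 hr, against 6.80 and 7.02 in the transfected control. Both 72 hr arrays were below all 10 others, and the second was not above background, being the 1 array of 12 on which Mvk was not detected. The means were 5.52 ± 0.78 and 6.91 ± 0.16 (SD, n = 2 each), a fitted log2 fold change of -1.39 (SE 0.33) with an adjusted p of 0.0397, and 0.0102 with the slide (limma, Benjamini-Hochberg). With the undetected array set to the lowest signal detected on it, 5.91, Mvk was at least 1.89-fold lower at 72 hr (log2 fold change -0.92). The size also depended on the background correction, with -0.92 at an offset of 50, -0.87 without background correction and -0.80 in the authors' normalized values, and Mvk passed the test in each of these.

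Pmvk, phosphomevalonate kinase, acts next in the chain and lies at chr3:89454541-89469014. It read 8.88 and 7.95 at 72 hr, against 9.62 and 9.41 in the transfected control. The 72 hr arrays were below both, and the untransfected control arrays lay between them at 9.05 and 9.20. Its log2 fold change was -1.10 (SE 0.27), with an adjusted p of 0.0446, and 0.0113 with the slide (limma, Benjamini-Hochberg).

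Mvd decarboxylates mevalonate diphosphate to isopentenyl diphosphate and lies at chr8:122433596-122443422. The 72 hr arrays read 7.77 and 7.39, against 8.41 and 8.84 in the transfected control. These were the 2 lowest of the 12 arrays. On the log2 scale the difference was -1.04 (SE 0.31), with an adjusted p of 0.0646 that missed the threshold, and 0.0239 with the slide (limma). Fdps, farnesyl diphosphate synthase, joins isoprenoid units into farnesyl diphosphate and had log2 signals of 12.94 and 11.85 at 72 hr, against 13.19 and 13.33 in the transfected control. Most of that difference was on slide 2, where it was -1.48, with -0.26 on slide 1. Over both slides the log2 fold change was -0.87, with an adjusted p of 0.0850, and 0.0394 with the slide (limma). A second Fdps probe gave -0.55. With the mean of both probes the Fdps change was -0.71 and missed the threshold with the slide as well, at an adjusted p of 0.0641.

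Past farnesyl diphosphate, the steps that make and trim the sterol rings had a median closer to 0, with Stard4 and Lss about level with Fdps. The 10 measured genes (9 enzymes and Stard4, which carries cholesterol between membranes) had a median log2 fold change of -0.54, with 0 called without the slide and 3 with it, Stard4, Hsd17b7 and Ebp. In 8 of the 10 both 72 hr arrays were below both transfected control arrays, which held for 26.3% of all features. Over all features 2.75% were called lower without the slide and 8.76% with it.

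Stard4 read 10.24 and 9.62 at 72 hr, against 10.53 and 11.09 in the transfected control, and the groups did not overlap. Its log2 fold change was -0.88 (SE 0.27), with an adjusted p of 0.0775, and 0.0343 with the slide (limma). Hsd17b7, which reduces the sterol ketone left after demethylation, read 9.91 and 9.75 at 72 hr, against 10.22 and 10.71 in the transfected control. Its 72 hr values and the second 48 hr value (9.83) were the 3 lowest of the 12. The log2 fold change was -0.63, with an adjusted p of 0.0911, and 0.0416 with the slide (limma). Ebp, the sterol isomerase, read 10.74 and 10.41 at 72 hr, against 11.12 and 11.00 in the transfected control. The slides gave -0.38 and -0.59, closer to each other than for any mevalonate gene. Ebp had a log2 fold change of -0.49 (SE 0.16), with an adjusted p of 0.0932, and 0.0281 with the slide (limma).

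Nsdhl, a dehydrogenase that helps strip methyl groups from the sterol ring, read 8.58 and 7.72 at 72 hr, against 8.83 and 8.67 in the transfected control. The log2 fold change was -0.60, with an adjusted p of 0.264, and 0.0647 with the slide (limma), although all 4 of its kept probes were negative, from -0.97 to -0.60. Lss, which closes the ring to lanosterol, had a log2 fold change of -0.85, with -0.22 on slide 1 and -1.47 on slide 2, and did not pass (adjusted p of 0.142, and 0.0743 with the slide). Dhcr7, a late reductase of the pathway, had -0.61 and did not pass, with -0.08 and -1.13 on the slides.

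The remaining 4 sterol genes had smaller changes, and none passed. With the slide in the fit, the 95% interval of the log2 fold change at 72 hr was -0.60 to 0.11 for the lanosterol demethylase Cyp51 and -0.67 to 0.16 for the desaturase Sc5d. For Sqle, squalene epoxidase, it was -0.41 to 0.10, and for Msmo1, the methylsterol oxidase, -0.40 to 0.30. The values of Sqle and Msmo1 overlapped between the groups. The intervals of these 4 genes exclude the mean change of Mvk, Pmvk, Mvd and Fdps. Those mean changes have wide intervals of their own, with the slide -1.45 to -0.29 for Fdps, which overlaps those of the 4 genes. No difference between genes was tested.

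**Figure D3:**
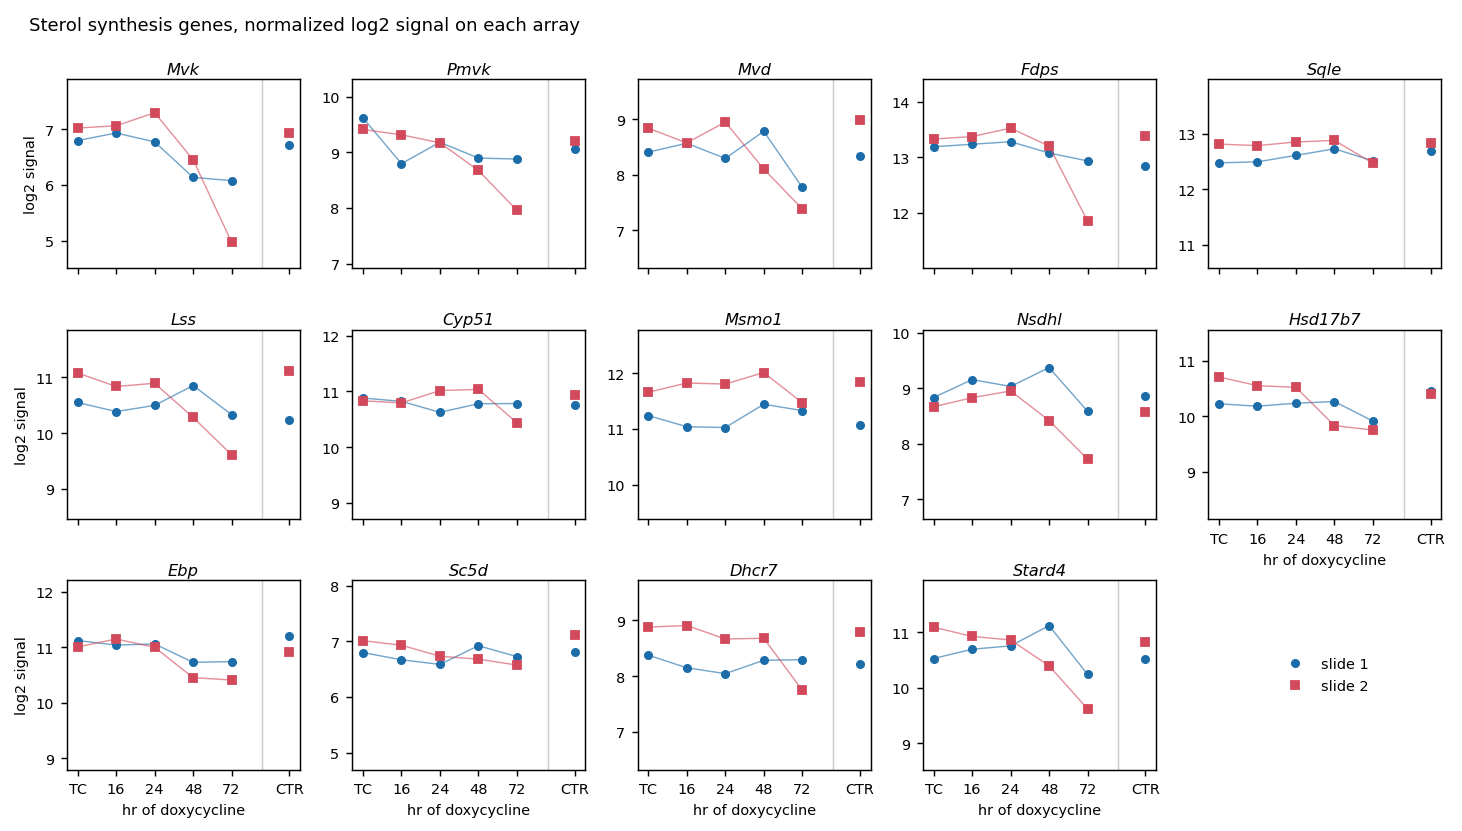
Log2 signal of the measured sterol synthesis genes on each array, 1 panel per gene, with the transfected control (TC) and the 16, 24, 48 and 72 hr arrays in time order and the untransfected control (CTR) set apart at the right, blue circles for slide 1 and red squares for slide 2. Every panel spans the same log2 range, and in Mvk the 72 hr arrays (6.08 and 4.97, the second not detected) are the 2 lowest of the 12.

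The fatty acid genes had no common direction. Elovl6, which lengthens palmitate, was the 1 of 8 that passed, and only with the slide. Its log2 signal was 8.73 and 8.37 at 72 hr, against 9.30 and 9.29 in the transfected control, with no overlap. The log2 fold change was -0.75 (SE 0.25), with an adjusted p of 0.0905, and 0.0379 with the slide (limma).

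Fads2, the first desaturase of polyunsaturated fatty acid synthesis, read 9.81 and 9.18 at 72 hr, against 10.08 and 9.70 in the transfected control, and the first 72 hr value lay between the control values. The log2 fold change was -0.39, with an adjusted p of 0.296, and 0.101 with the slide (limma). Fads1, the second desaturase of that route, was on both 72 hr arrays above both transfected control arrays, 14.07 and 14.21 against 13.97 and 14.04, a log2 fold change of 0.13 that did not pass (95% interval with the slide -0.07 to 0.33).

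The stearoyl-CoA desaturases went opposite ways on the slides. Scd1 had 0.15 on slide 1 and -1.23 on slide 2, and Scd2 had 0.64 and -0.36, so neither had a settled direction. Acly, ATP citrate lyase, had a log2 fold change of -0.10 and Me1, the malic enzyme that supplies NADPH, 0.07, with 95% intervals with the slide of -0.34 to 0.15 and -0.30 to 0.44. Fasn, the fatty acid synthase, was dim: it was detected on 4 of 12 arrays and on neither 72 hr array, where it was not well above background. Its 72 hr signals, 5.52 and 5.68, overlapped the transfected control signals, 5.62 and 6.30, and 1 of those 2 control arrays detected it. The fitted log2 fold change of -0.36 did not pass, with an adjusted p of 0.410 (limma) and a 95% interval without the slide of -0.92 to 0.21. Since both groups held undetected signals, no smallest fold decrease is given for Fasn.

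**Figure D4:**
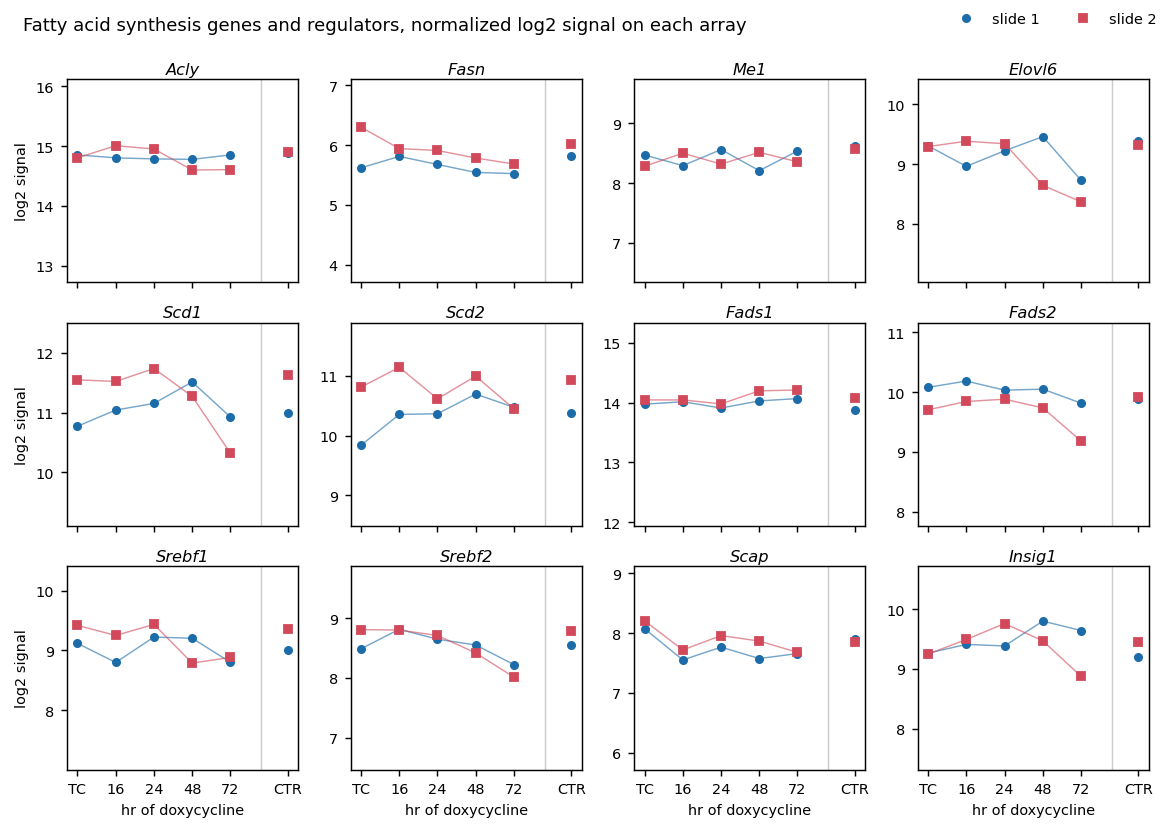
Log2 signal of the measured fatty acid synthesis genes and the 4 regulators on each array, laid out by time with the transfected control (TC) left and the untransfected control (CTR) set apart at the right, blue circles for slide 1 and red squares for slide 2. The 72 hr values of Elovl6 (8.73 and 8.37) lie below both transfected control values, whereas those of Scd1, Scd2 and Insig1 overlap them.

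Among the regulators, Srebf2 and Scap passed with the slide in the fit, and Srebf1 and Insig1 did not pass. Srebf2 encodes SREBP-2 and read 8.22 and 8.01 at 72 hr, against 8.49 and 8.81 in the transfected control. These were the 2 lowest of the 12 arrays. The log2 fold change was -0.53 (SE 0.17), with an adjusted p of 0.0886, and 0.0384 with the slide (limma), and a second probe gave -1.06. Srebf1 encodes SREBP-1 and read 8.80 and 8.88 at 72 hr, against 9.12 and 9.42 in the transfected control. The groups did not overlap, but the log2 fold change of -0.43 missed the threshold, with an adjusted p of 0.241, and 0.129 with the slide (limma).

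Scap, the escort of the SREBPs, read 7.66 and 7.68 at 72 hr, against 8.07 and 8.21 in the transfected control, a log2 fold change of -0.47 with an adjusted p of 0.122, and 0.0470 with the slide (limma). Its kept probes went opposite ways, since a dimmer probe detected on 3 of 12 arrays gave 0.46, and with their mean the change was 0.00. The transfected control arrays were also the 2 highest for Scap, and against the untransfected control (7.90 and 7.86) the change at 72 hr was -0.21, with an adjusted p of 0.350 with the slide (limma). Insig1, the anchor that holds Scap in the endoplasmic reticulum and a target of the SREBPs, read 9.64 and 8.87 at 72 hr, against 9.26 and 9.25 in the transfected control. The first array was above both transfected control arrays and the second below both, so the log2 fold change was 0.00 (95% interval with the slide -0.49 to 0.49). The 2 other kept Insig1 probes gave -0.31 and -0.34.

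Set side by side, the median log2 fold change of the sterol genes at 72 hr was -0.62 and that of the fatty acid genes -0.23, a difference of -0.39, given as a description with no test. The difference had the same sign on both slides, -0.29 on slide 1 and -0.60 on slide 2, but the medians themselves were not alike between slides. Sterol genes had a median of -0.25 on slide 1 and -1.04 on slide 2, and fatty acid genes 0.03 and -0.44. Both slides were negative for 12 of 14 sterol genes and 3 of 8 fatty acid genes, against 4084 of all 12001 features. Without the first 72 hr array the difference was -0.71. With detection on at least 6 arrays, which left out the dim Fasn, the fatty acid median was -0.10 and the difference -0.52. Against the untransfected control the difference was -0.33. The median SD of the members between replicates was also higher at 72 hr (0.239) and 48 hr (0.214) than in the other groups (0.168 to 0.186).

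**Figure D5:**
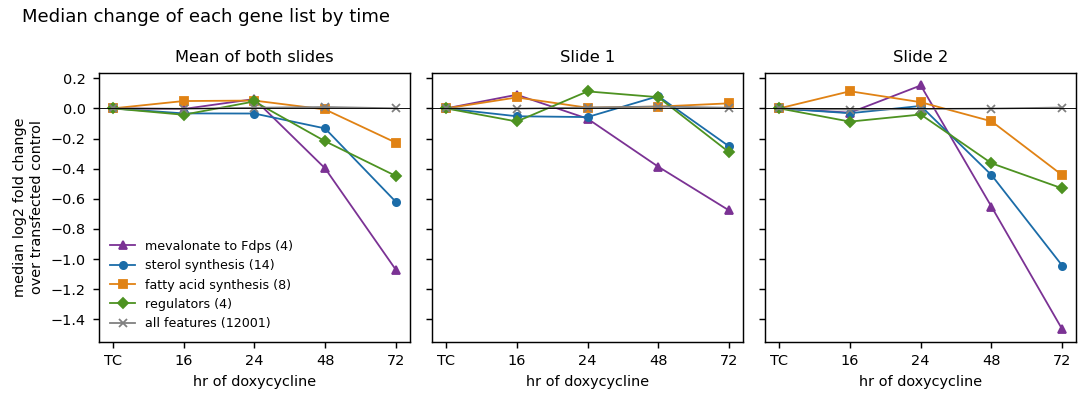
Median log2 fold change relative to the transfected control by hours of induction, in 3 panels (mean of both slides, slide 1, slide 2), for the mevalonate steps to Fdps (4 genes), all sterol genes (14), fatty acid genes (8), regulators (4) and all features (12001). At 72 hr the medians are -1.07, -0.62, -0.23, -0.45 and 0.00 in the first panel, and the sterol median is -0.25 on slide 1 and -1.04 on slide 2.

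Other markers moved at 72 hr as well. The summed signal of the 11 β cell markers was 16.71 to 16.93 on the log2 scale at 72 hr, against 16.94 to 16.95 in the transfected control, and 0 of the 11 passed without the slide. With the slide Mafa (log2 fold change -1.27, adjusted p of 0.0122) and Chga (-0.47, 0.0382) were lower (limma), and the other 9 did not pass, with values from -0.49 to 0.23. The summed signal of the 3 other islet markers was 12.03 to 12.93 at 72 hr, against 14.18 to 14.37 in the transfected control. In that list Gcg was lower by a log2 fold change of -1.93 (adjusted p of 0.0134, limma), Irx2 was higher by 1.09 (0.0151), and Ppy had -0.09 and did not pass. In bulk RNA, fewer cells of a type and less RNA per cell cannot be told apart. The part of these markers in the results on the sterol genes was not tested.

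The next question was when the difference appeared. At 16 and 24 hr the sterol genes had a median log2 fold change of -0.03 relative to the transfected control at either time, against 0.05 at either time for the fatty acid genes. No member was called at 16 hr or 24 hr in either fit (limma), as with 0% of all features without the slide, and 0.00833% at 16 hr and 0.0167% at 24 hr with it. At an unadjusted p under 0.05 there was 1 member at 16 hr, Scap, with a log2 fold change of -0.50 (adjusted p of 1, limma), and 0 at 24 hr, against 0.842% and 1.15% of all features. The dimmer Scap probe gave 0.24 at 16 hr, and the mean of both gave -0.13. The methods' t-test, unadjusted, called 2 members at 16 hr and 0 at 24 hr, against 3.24% and 3.72% of all features.

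At 48 hr the mevalonate genes had the most negative median. All 4 were below 0, with a median of -0.40, whereas the median of all sterol genes was -0.13, that of the fatty acid genes -0.01 and that of the regulators -0.22. No member passed at 48 hr in either fit (limma), where 0% of all features passed without the slide and 0.95% with it. The unadjusted p was under 0.05 for 3 of 26 members, Pmvk (-0.73), Ebp (-0.47) and Scap (-0.42), and for 10.8% of all features. The methods' t-test, unadjusted, called 1 member and 5.03% of all features. Mvk read 6.13 and 6.45 at 48 hr, against 6.80 and 7.02 in the transfected control, with no overlap and a log2 fold change of -0.62 (adjusted p of 0.528, limma). The 48 hr medians of sterol genes had opposite signs on the slides, 0.08 and -0.44. Insig1 had a positive value at this time, with 9.80 and 9.47 at 48 hr against 9.26 and 9.25 in the transfected control, a log2 fold change of 0.38 that did not pass (adjusted p of 0.593, limma), while its other kept probes gave 0.07 and -0.30.

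Pmvk and the probe used for Scap were below the transfected control on both slides at all 4 times. That Scap probe had log2 fold changes of -0.50, -0.28, -0.42 and -0.47, whereas the dimmer one had 0.24, 0.28, 0.24 and 0.46, and Pmvk had -0.46, -0.34, -0.73 and -1.10 at 16, 24, 48 and 72 hr, and these 4 comparisons share the same control arrays. The transfected control was above the untransfected control for both, by 0.26 for the Scap probe used and 0.39 for Pmvk.

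A comparison that does not use the transfected control sets the 72 hr against the 16 hr arrays. It uses the same 72 hr arrays as the comparison with that control, so it is not independent of it. All 14 sterol genes were negative, with a median log2 fold change of -0.59 (-0.16 on slide 1 and -1.13 on slide 2). The fatty acid genes had a median of -0.28. Both slides were negative for 9 of 14 sterol genes and 4 of 8 fatty acid genes, against 4156 of all 12001 features. Mvk was the 1 member that passed without the slide, and 1.44% of all features were called lower and 1.62% higher. Its 72 hr values of 6.08 and 4.97 stood against 6.93 and 7.06 at 16 hr, a fitted log2 fold change of -1.48 (SE 0.33), with an adjusted p of 0.0422, and 0.00833 with the slide (limma). With the undetected 72 hr array at its lowest detected signal, Mvk was at least 2.01-fold lower than at 16 hr. With the slide 8 of 26 members were called lower and 0 higher, where 8.65% of all features were lower and 9.99% higher. These were Mvk, Mvd, Fdps, Nsdhl, Ebp, Stard4, Srebf2 and Fads2.

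Srebf2 read 8.22 and 8.01 at 72 hr, against 8.81 and 8.80 at 16 hr, a log2 fold change of -0.69 (adjusted p of 0.0541, and 0.0142 with the slide, limma). Nsdhl had -0.84 between these times (0.0180 with the slide) and Fads2 -0.52 (0.0416 with the slide). Pmvk had -0.64 and Scap 0.03 between these times, and neither passed. Without the second 72 hr array or either 16 hr array 0 members passed without the slide, and without the first 72 hr array 8 passed. With the slide 0 passed without the second 72 hr array or the second 16 hr array, 3 without the first 16 hr array and 12 without the first 72 hr array.

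Transfection without doxycycline was set against doxycycline without plasmid to see what the controls themselves differed by. No member passed between the transfected and the untransfected control in either fit (limma), with 0% of all features called without the slide and 0.00833% with it, and 0 members had an unadjusted p under 0.05, against 0.908% of all features. The medians were 0.03 for sterol genes, -0.06 for fatty acid genes and 0.04 for regulators. The largest differences among the members were 0.39 for Pmvk, -0.33 for Scd2 and 0.26 for Scap.

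Other genes of sterol and fatty acid metabolism did not share one direction at 72 hr. Of 32 further genes of sterol uptake, transport, synthesis and regulation 14 were measured, with a median log2 fold change of -0.01. In this list 1 was called higher and 0 lower without the slide, and 2 higher and 3 lower with it. Vldlr, a lipoprotein receptor, was the one called without the slide, at 12.04 ± 0.22 at 72 hr and 10.26 ± 0.24 in the transfected control (SD, n = 2 each; adjusted p of 0.0223, limma). Log2 fold changes in this list ran from -1.21 to 1.78, and the genes called lower are not named here. Insig2, the partner of Insig1, is named although it did not pass, at 0.44 (adjusted p of 0.0597 with the slide, limma). Of 34 further genes of fatty acid and glyceride metabolism 23 were measured, with a median of 0.09 and with 6 higher and 4 lower with the slide. Over all features the shares were 10.4% higher and 8.76% lower with the slide, and no test set the counts of these lists apart from those shares.

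Of that second list, Mlx, the dimer partner of the carbohydrate-responsive factor ChREBP, was lower at 72 hr with a log2 fold change of -1.24 (adjusted p of 0.0420, and 0.0109 with the slide, limma). Mlxipl, which encodes ChREBP, was higher by 0.49 with the slide (adjusted p of 0.0232), and Agpat2, an acyltransferase of glyceride synthesis, by 0.91 (0.0154). With the slide 10.4% of all features were higher and 8.76% lower. Of 25 genes of fatty acid oxidation 21 were measured, with a median of 0.01, 3 higher and 1 lower with the slide, and no test set these counts apart from those shares. Among the genes of this list Decr1, a reductase for unsaturated fatty acids, was higher by 0.85 (0.00809 with the slide), and the nuclear receptor gene Ppard was lower, with -0.95 (0.0141 with the slide).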

How the data were processed

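The authors deposited signal intensities of 12 arrays, averaged over the beads of a probe and not normalized between arrays, and beside each a deposited detection p-value from negative control beads. They also deposited quantile-normalized intensities, for which the submitters' processing notes name lumi without a version, and these served as an alternative only. No per-sample column was left out (0). For the results given, the neqc function of limma 3.58.1 (R 4.3.3) took the unnormalized intensities through background correction by detection p-value, quantile normalization and log2 (offset 16). A probe was kept if at least 2 arrays detected it at p under 0.01 (17556 of 45281), and the brightest probe stood for a gene, which left 12001 features. The annotation gave 34885 probes 1 symbol and 18 several, and did not list 10378. All features were fitted in limma with a term for each of the 6 groups (moderated test with a variance trend, 6 residual degrees of freedom), and again with the slide as a block (5), with Benjamini-Hochberg adjustment over all features and an adjusted p under 0.05 as the threshold. The fit was tested on simulated data with known changes before use. P-values rest on the spread between the 2 arrays of a group, pooled over all 6 groups and moderated, not on the compared groups alone. The number of arrays limits the precision, and whether the 2 arrays of a group came from separate cultures is not stated.

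Replicate numbers follow the slides in the labels, and same-numbered arrays deviated together from their group means, with a correlation of 0.207 to 0.628 (median 0.434) over 15 pairs of groups, so the numbers pair the arrays. Alternatives changed the offset, the background correction, the scaling, the detection filter, the probe rule, the arrays in the fit and the control, left out each array in turn, or used the methods' t-test. Values per array are given for the 4 regulators and for up to 12 members with the smallest p at 72 hr among those that passed in any of the 6 comparisons. From the other lists, up to 6 genes that passed are named, and also Insig2, which did not pass. The members and lists were chosen with earlier results of these data known. Plots were made in matplotlib 3.10.9 under Python 3.11.15.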

Additional observations from a re-analysis of the deposited data

Results flagged for a closer look

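The 72 hr arrays differed from the 16 hr arrays for 8 members (limma, Benjamini-Hochberg). Longer induction and longer time in culture cannot be told apart in this difference. The 72 hr mean minus the 16 hr mean was -1.48 on the log2 scale for Mvk, which passed without and with the slide in the fit. Of all features, 1.44% were called lower and 1.62% higher without the slide, and 8.65% lower and 9.99% higher with it. The other 7 members passed only with the slide. They were the mevalonate enzymes Mvd at -0.99 (adjusted p of 0.0303) and Fdps at -0.91 (0.0337), the sterol genes Stard4 at -0.88 (0.0359), Nsdhl at -0.84 (0.0180) and Ebp at -0.52 (0.0231), the regulator Srebf2 at -0.69 (0.0142) and the desaturase Fads2 at -0.52 (0.0416). The 8 were picked by this same test, and all were negative on both slides. That held for 14 of all 26 members and for 4156 of all 12001 features.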

How the results depend on the processing

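With 2 arrays a group, the number of members called depended on the slide term and on single arrays. With the replicate block (slide), 10 members were called at 72 hr and 8 in the 72 against 16 hr comparison, against 2 and 1 without it. At 72 hr, 0 were called with median scaling (5 with the slide), 0 with only the 2 groups compared (3 with the slide), 1 against the untransfected control (6 with the slide), and by the methods' t-test 1 unadjusted and 0 after Benjamini-Hochberg adjustment. In the 72 against 16 hr comparison these were 0 with median scaling (4 with the slide), 2 with only the 2 groups compared, and by the methods' t-test 2 and 0. That t-test, unadjusted, called 2 at 16 hr and 1 at 48 hr, against 0. Mvk at 72 hr, -1.39, was -0.92 at an offset of 50, -0.87 without background correction and -0.80 in the authors' normalized values, where Pmvk, Fdps, Mvd and Stard4 (-0.98, -0.90, -0.86 and -0.86) were more negative. Leaving out 1 array gave 0 to 5 calls at 72 hr (0 to 14 with the slide) and 0 to 8 for 72 against 16 hr (0 to 12 with the slide). The sterol minus fatty acid median at 72 hr was -0.71 to -0.30 when 1 array was left out. At 16 hr it was -0.08, with -0.18 to 0.0930 when 1 array was left out, -0.13 with median scaling, -0.11 with detection on at least 6 arrays, -0.0380 with all probes, -0.0429 with the mean of the kept probes and -0.0259 against the untransfected control, so it had no settled sign. Of the other values, 139 counts and 17 median differences stayed close to those given. These counts include those that were 0 under both settings, as at 16, 24 and 48 hr, where few or no features were called with adjustment. A median difference was taken as close if it moved by less than the SD of its values on the 2 slides, which is a loose rule. Of the values of single genes under an alternative, 280 kept their side of the threshold, 58 lost it, 13 gained it and 0 changed direction. The 280 include values that passed under neither setting, as for Scap at 16 hr, so they overstate how stable the calls were. All of the 58 had passed before the change of setting. Some of the 13 were gained only by adding the slide to the fit. The cause was not tested in any of these cases.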
